A study of Mus musculus with 2 samples.

Results

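Mir184 is a microRNA (miRNA) gene that has been described in germ cells of the mouse testis, and its small RNA reads were examined in 2 tables of small RNA sequences from testes of a Stambp-ps1 mutant study. Its members were the reads of 18 to 25 nt that match the Mir184 hairpin of GENCODE M21 exactly and in sense. Mir184 is 1 of 1174 annotated hairpins with a Mir symbol and was chosen by its read counts in these tables, which were lower in one of them, so that difference is given as a description and was not tested. The members came to 14 distinct sequences.

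The labels describe a Stambp-ps1-/- sample and a Stambp-ps1+/- sample, both testes of C57BL/6 mice at 23 dpp (days post partum), with a size class of 15 to 40 nt cut from a gel before library construction. Stambp-ps1 is a pseudogene of Stambp, and the labels give neither the lesion nor the number of animals behind a library. In the deposited record both tables belong to the Stambp-ps1-/- sample, but one has KO in its name and the other het. They are called the KO table and the het table here after those words alone, and neither was put in a genotype group. The KO table held 11 of the 14 Mir184 sequences and the het table all 14. Each sequence absent from the KO table had 1 read in the het table, the deeper one. Over all reads there were 6895028 distinct sequences in the KO and 7489485 in the het table. There were 54384974 reads in the KO table and 62773871 in the het table, all of 18 to 32 nt, and miRNA hairpins took 12.3% of the KO and 10.3% of the het reads. With 1 library per table there was no replicate and no test between the tables. Levels are given per 1000000 reads of a table (RPM), ratios are KO over het RPM, and intervals are exact 95% binomial intervals. They cover counting error and not variation between animals, and PCR copies, which no molecular identifier marks here, are not independent molecules.

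A miRNA hairpin is cut by Drosha and Dicer to a short duplex, and one strand of it is loaded into an Argonaute protein. Bases 2 to 8 of that strand, the seed, pair with target mRNAs, so a shifted 5′ end changes the targets, whereas 3′ ends are commonly trimmed or extended by terminal nucleotidyl transferases. The sequence of miR-184 is conserved between flies and mammals. In mammals it is known from the lens and cornea of the eye, the brain and the testis, and in the mouse brain Mir184 is expressed from the paternal allele. The gene (ENSMUSG00000065596.1) has 1 exon of 69 nt at chr9:89802260-89802328 on the minus strand of GRCm38, outside any other annotated gene. The hairpin is shown first with its mature arms in capitals, because the difference between the arms runs through all results, and then each mature miRNA with its seed in capitals. The sequences are those of RefSeq for GRCm38.
Mir184 hairpin: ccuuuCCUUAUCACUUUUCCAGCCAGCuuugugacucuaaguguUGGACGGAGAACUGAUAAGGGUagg
miR-184-3p (chr9:89802263-89802284, minus strand): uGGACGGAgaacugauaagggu
miR-184-5p (chr9:89802302-89802323, minus strand): cCUUAUCAcuuuuccagccagc

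The forms that carry the comparison all begin with the first base of miR-184-3p and differ at the 3′ end, except one that begins 1 base earlier. They are written with T, as in the tables. Capitals mark bases past the mature end that the hairpin encodes, a base before the mature start, or, in the last 3, bases added to the end that the hairpin does not encode.
22-nt form: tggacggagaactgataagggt
21-nt form: tggacggagaactgataaggg
19-nt form: tggacggagaactgataag
23-nt form: tggacggagaactgataagggtA
23-nt form, start 1 base earlier: Ttggacggagaactgataagggt
22-nt form with U added: tggacggagaactgataagggtT
23-nt form with U added: tggacggagaactgataagggtaT
22-nt form with UU added: tggacggagaactgataagggtTT

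Mir184 was well covered in both tables and was lower in the KO one. It had 4365 reads in the KO table and 6528 reads in the het table. These were 80.3 RPM (77.9 to 82.7) in the KO and 104 RPM (101 to 107) in the het table. The ratio was 0.772 (0.743 to 0.802), a log2 ratio of -0.37 with 0.5 reads added to each count. A log2 ratio below 0 was the case for 19.6% of the 260 miRNAs with at least 200 reads in the tables together, and one at or below -1 for 1.54%. Those at or below -1 were Mir6538, Mir6240, Mir879 and Mir6236. With reads over miRNA hairpins as the total, every miRNA shifted down by 0.25 on the log2 scale, and the Mir184 ratio was 0.648 (0.624 to 0.674). On that scale 45.4% of the 260 miRNAs had a log2 ratio below 0. No Mir184 read matched another annotated transcript or hairpin. The reads were not matched to the genome outside annotated transcripts.

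The reads came almost wholly from the 3p arm, the strand known as the functional one. The 3p arm had 4364 of 4365 reads (99.98%) in the KO and 6525 of 6528 reads (99.95%) in the het table. The 5p arm had 1 read in the KO and 3 reads in the het table. Both counts were at or under the floor of 3 reads, which is 0.0552 RPM in the KO and 0.0478 RPM in the het table, so no ratio is given for it. The difference between the tables was thus one of the 3p arm, and a change in the share of the arms was not detectable at this depth. By its predicted fold (-29 kcal/mol, 27 base pairs), 17 of the 22 bases of the 3p arm pair with a base of the 5p arm, and 17 bases lie between the arms. Of reads longer than 25 nt, 1 in the KO and 0 in the het table matched the hairpin, and it began at the 5p start and ran into the loop. No antisense read was found in either table, and the exact upper limit for 0 reads is 0.0678 RPM in the KO and 0.0588 RPM in the het table.

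**Figure D1:**
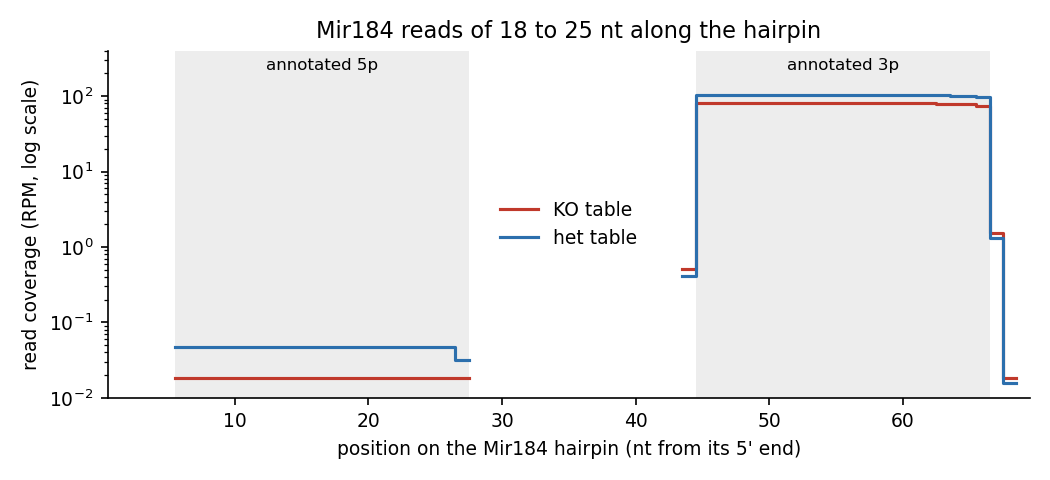
Read coverage (RPM, log scale) by position on the 69-nt Mir184 hairpin for reads of 18 to 25 nt, with the KO table in red, the het table in blue and the annotated arms shaded; gaps in a line are positions with 0 reads. The 3p arm is covered at about 80.3 RPM in the KO and 104 RPM in the het table, and the 5p arm rests on 1 KO and 3 het reads.

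The 5′ end was nearly fixed, so nearly all reads carried the seed GGACGGA. Of the KO reads 4333 (99.3%, 99.0 to 99.5) and of the het reads 6491 (99.4%, 99.2 to 99.6) began at the annotated first base of miR-184-3p. Their intervals overlap. Reads that begin 1 base earlier, with the seed UGGACGG, numbered 28 in the KO and 26 in the het table (ratio 1.24, 0.703 to 2.21). A start 1 base later, with the seed GACGGAG, was found in 3 KO and 8 het reads (ratio 0.433, 0.0740 to 1.80). Both intervals include 1, so neither shifted start was shown to differ, and the reads at the annotated start (ratio 0.771, 0.741 to 0.801) carried the difference of the gene. Among 1738 mature mouse miRNAs of RefSeq, 0 others have the seed of the annotated start, and 0 have the seed of either shifted start. Mir184 has therefore no family member in this table whose reads could be set beside it.

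The exact forms did not share one ratio. In RPM the 22-nt mature form was lower in the KO table, and the 21-nt and 23-nt forms were not. The 22-nt form made up most of the gene, with 3861 reads (71.0 RPM) in the KO and 5914 reads (94.2 RPM) in the het table. Its ratio was 0.754 (0.723 to 0.785). The 21-nt form, without the last U of the mature miRNA, had 286 reads (5.26 RPM) in the KO and 315 reads (5.02 RPM) in the het table, a ratio of 1.05 (0.890 to 1.23). The 23-nt form ends with the A that follows the mature end in the hairpin. It had 83 reads (1.53 RPM) in the KO and 81 reads (1.29 RPM) in the het table, a ratio of 1.18 (0.860 to 1.63). The intervals of these 2 forms lay above that of the 22-nt form and included 1.

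The forms of 18 to 20 nt had ratios below 1, on few reads. The 19-nt form had 66 reads in the KO and 102 reads in the het table (ratio 0.747, 0.539 to 1.03), and the 18-nt form had 25 KO and 56 het reads (ratio 0.515, 0.308 to 0.840). The 20-nt form was rarer than either neighbour, with 11 KO and 22 het reads (ratio 0.577, 0.253 to 1.24). Only the interval of the 18-nt form excluded 1 among these 3. With the 21-nt form included, all reads from the annotated start that were shorter than the mature form had a ratio of 0.905 (0.790 to 1.04). Of the 4 forms with at least 100 reads in the tables together, 2 had a log2 ratio below 0, the 22-nt and the 19-nt form. Over all miRNAs this held for 29.3% of 1488 such forms. With miRNA reads as the total, all 4 forms of Mir184 had a log2 ratio below 0, as had 53.8% of the 1488 forms, so the direction of the 21-nt and 23-nt forms depends on the scale. The 23-nt form that begins 1 base earlier had 27 KO and 22 het reads (ratio 1.42, 0.777 to 2.61), and the 21-nt form that begins 1 base later had 3 KO and 8 het reads. Each of the 6 remaining forms had at most 2 reads in either table. The reads outside the 22-nt form together numbered 504 in the KO table, 11.5% (10.6 to 12.5) of the gene, and 614 in the het table, 9.41% (8.71 to 10.1), and their ratio was 0.947 (0.840 to 1.07).

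**Figure D2:**
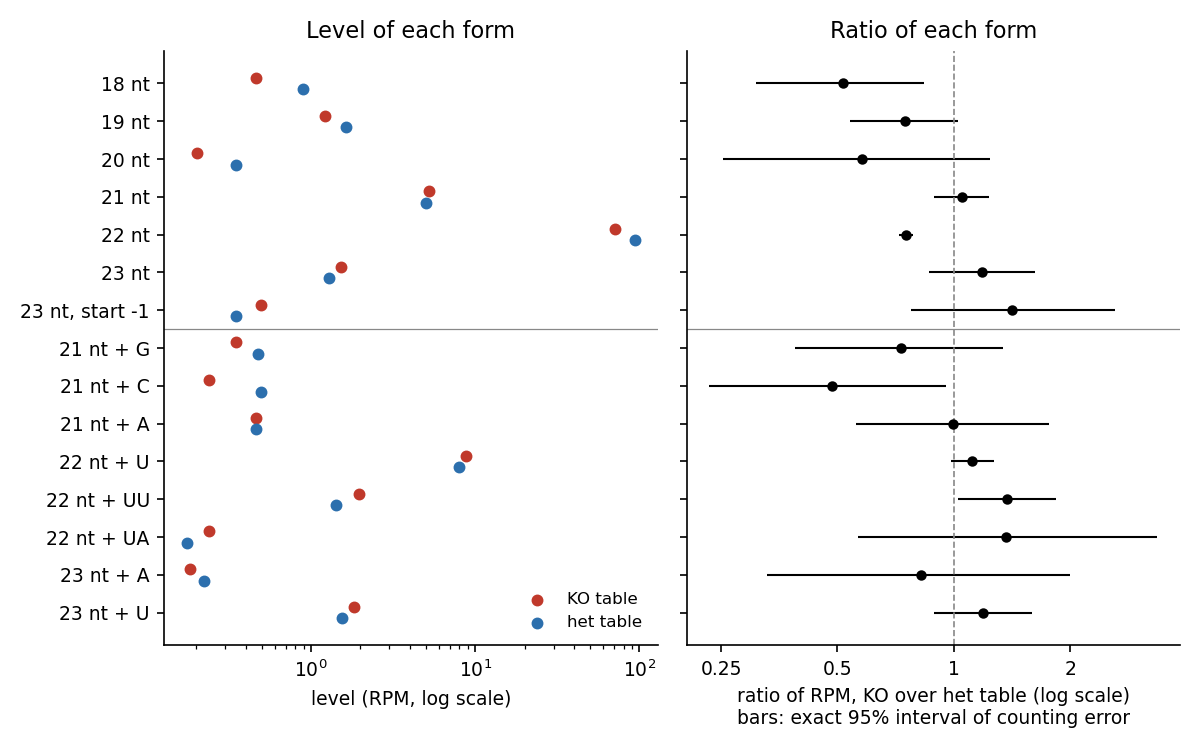
Level (left, RPM, log scale) and ratio of RPM (right, KO over het, log scale, bars giving exact 95% intervals of counting error) of each Mir184 3p form with at least 20 reads in the tables together; exact forms stand above the grey line and forms with added bases below it, and all begin at the annotated start unless marked. With all reads of a table as the total, the 22-nt form lies at 71.0 RPM in the KO and 94.2 RPM in the het table with a ratio of 0.754. Its forms with U and with UU added lie at ratios of 1.12 and 1.37.

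A most-read form with a lower log2 ratio than the remaining forms of the same miRNA was not rare, but Mir184 lay towards the end of the order. For Mir184 the log2 ratio was -0.41 for the 22-nt form and -0.08 for its other forms, a difference of -0.33. The median of this difference over the 247 miRNAs with at least 100 reads in their other forms was 0.04. It was below 0 for 40.1% of them, and 24 lay lower than Mir184. Among the 340 forms of exactly 22 nt with at least 100 reads, the median log2 ratio was 0.31, and 30 lay below the 22-nt form of Mir184.

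Read length itself differed between the tables, so each length of Mir184 was set beside the same length of the other miRNAs and of all reads. Of all KO reads 4.08% were of 18 to 20 nt, and of all het reads 7.83%. At 22 nt the Mir184 3p ratio was 0.754, against 1.27 for the reads of all other miRNA hairpins and 1.05 for all reads of that length. At 21 nt the Mir184 ratio was 1.03 (0.876 to 1.21), against 1.15 for the other miRNAs and 0.778 for all reads. For 23 nt it was 1.23 (0.934 to 1.63), against 1.13 for the other miRNAs and 0.943 for all reads. At 18 nt the ratio was 0.515 for Mir184, 0.874 for the other miRNAs and 0.361 for all reads. Short reads were thus lower in the KO table for all 3 sets at 18 nt, and their part in the short Mir184 forms was not tested. The other miRNAs include Mir6240, whose most read length was 18 nt, with 6654 KO and 20041 het reads. How far Mir6240 alone lowers the 0.874 was not worked out. The Mir184 ratio divided by that of the other miRNAs was 0.594 at 22 nt, 0.892 at 21 nt and 1.09 at 23 nt. These are the lengths with at least 200 Mir184 reads. On fewer reads it was 0.590 at 18 nt, 0.761 at 19 nt and 0.530 at 20 nt, so the gap was not particular to 22 nt. Reads of 22 nt, its most read length, made up 88.5% of the Mir184 reads in the KO and 90.7% in the het table. Over the 260 miRNAs the median share of a miRNA's own most read length was 56.8% in the KO and 55.9% in the het table. A higher share than that of Mir184 was found for 14 miRNAs in the KO and 11 in the het table.

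**Figure D3:**
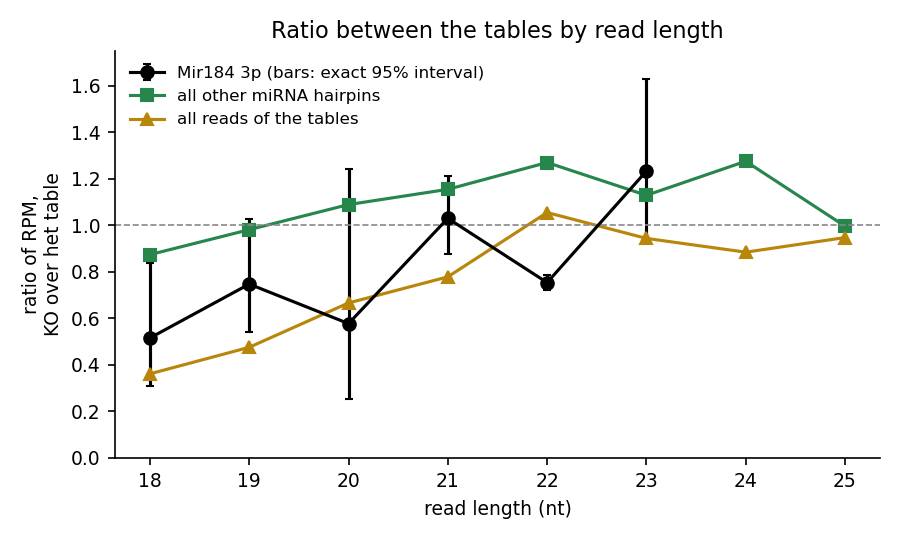
Ratio of RPM (KO over het) by read length in nt for Mir184 3p (black, with exact 95% intervals, lengths with at least 20 reads), all other miRNA hairpins (green) and all reads of the tables (ochre). At 22 nt Mir184 lies at 0.754 while the other miRNAs lie at 1.27, and at 23 nt Mir184 lies at 1.23 and the other miRNAs at 1.13.

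Reads with added 3′ bases lie outside the exact match and were examined next, because they end past the mature end like the 23-nt form. U added to a 3′ end is the work of terminal uridylyl transferases and is known to mark miRNAs for decay or to alter their processing. The reads counted here match the hairpin over at least 18 bases and then carry 1 to 3 bases it does not encode, within 25 nt. There were 831 such reads in the KO and 890 in the het table, over 60 distinct sequences. Those with U alone were the main kind, with 713 reads in the KO and 714 reads in the het table. They made up 13.7% (12.8 to 14.7) of the exact and tailed reads of Mir184 in the KO and 9.63% (8.96 to 10.3) in the het table. Tails of A alone were rare in both, with 43 reads (0.828%) in the KO and 52 reads (0.701%) in the het table, but an A added to the 22-nt form cannot be told from the A of the hairpin.

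Per 1000000 reads of the table, the 3 most read U-tailed forms had ratios above 1, unlike the 22-nt form. The 22-nt form with 1 U added had 481 reads (8.84 RPM) in the KO and 497 reads (7.92 RPM) in the het table, a ratio of 1.12 (0.983 to 1.27). With UU added there were 106 reads (1.95 RPM) in the KO and 89 reads (1.42 RPM) in the het table, a ratio of 1.37 (1.03 to 1.84). The 23-nt form with U added had 100 KO and 97 het reads (ratio 1.19, 0.891 to 1.59). Of these 3, only the interval of the form with UU excluded 1, with all reads as the total. Their log2 ratios were 0.16 with U, 0.46 with UU and 0.25 for the 23-nt form with U. The median over the 1488 exact forms of all miRNAs with at least 100 reads was 0.22. All reads with U alone past the mature end had a ratio of 1.16 (1.05 to 1.29), or 0.977 (0.878 to 1.09) with miRNA reads as the total. The other U-tailed forms were rare and not all of them were higher: the 22-nt form with UUU had 7 KO and 10 het reads (ratio 0.808, 0.261 to 2.35). Reads of 22 nt whose last base was A, G or C instead of U numbered 57 in the KO and 90 in the het table (ratio 0.731, 0.515 to 1.03). Among them the ratio was 0.995 (0.559 to 1.76) for A, 0.731 (0.389 to 1.34) for G and 0.484 (0.232 to 0.952) for C. All reads with a 3′ end past the mature end, encoded or added, had a ratio of 1.15 (1.04 to 1.27), with 820 KO and 824 het reads. Its interval does not overlap that of the 22-nt form. With miRNA reads as the total, the ratio of the reads past the mature end was 0.965 (0.875 to 1.06) and that of the 22-nt form 0.633 (0.608 to 0.659). The direction of the first thus depends on the scale. The relative gap between them cannot depend on it, because a change of total multiplies both ratios by the same factor. Exact and tailed reads together gave Mir184 95.5 RPM in the KO and 118 RPM in the het table, a ratio of 0.809 (0.780 to 0.838).

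The U-tailed share was compared with that of the other miRNAs to see whether tails differed in general. They differed little: the median share over the 260 miRNAs was 4.43% in the KO and 4.42% in the het table, and the share was higher in the KO table for 57.7% of them. Mir184 had a difference of 4.10 percentage points and was the sixth from the top of 260 in the order of these differences. The order is in points and not relative to the share, so it favours miRNAs with larger shares, and that of Mir184 was above the median in both tables. Above it were Mir339, Mir341, Mir328, Mir212 and Mir7-1, each with fewer reads than Mir184. Mir339 was the farthest of them, with 30.8% of reads in the KO and 18.2% in the het table. A U that the hairpin encodes next is counted as an exact match, so shares of U tails are compared between tables for the same miRNA and not between miRNAs. In the germ cell miRNAs Mir34b, Mir34c, Mir449a and Mir449c the U-tailed share was below 2% in both tables and differed by at most 0.125 points. These shares lie far below the 9.63% of Mir184 in the het table, so their differences in points cannot be set beside its 4.10.

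**Figure D4:**
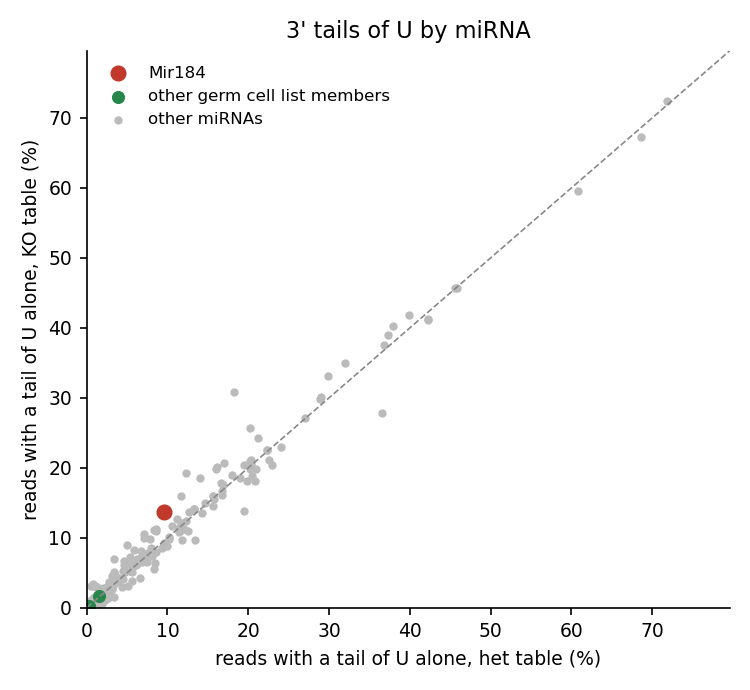
Share of reads with a 3′ tail of U alone (percent of exact and tailed reads) in the KO table (vertical axis) and the het table (horizontal axis), 1 point per miRNA with at least 200 reads; the dashed line marks equal shares. Mir184 (red) lies above the line at 13.7% in the KO and 9.63% in the het table, and most miRNAs lie close to the line.

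Mir184 had the lowest log2 ratio of the measured germ cell miRNAs. It was chosen for being lower in the KO table, so this place is only a description. By its level it held place 103 of 260 in the KO and place 84 in the het table, in an order of read counts that carries the ligation bias of each sequence. By log2 ratio it was the twelfth from the lowest, while the median of the 260 was 0.29 and their lower 5% tail began at -0.28. Of the 7 listed miRNAs of meiotic and later germ cells 6 are annotated, Mir469 being the exception, and 5 reached 200 reads. The median of these 5 was 0.33, with 4 above 0 and 1, Mir184, below, or 3 above and 2 below with miRNA reads as the total. Mir34c, of the p53-linked family active in meiotic cells, had 5485 RPM in the KO and 3964 RPM in the het table (0.47). Mir34b of the same transcript was at 187 RPM in the KO and 140 RPM in the het table (0.42). Of their relatives, Mir449a had 624 RPM in the KO and 498 RPM in the het table (0.33). Mir449c had 22.2 RPM in the KO and 20.9 RPM in the het table, a log2 ratio of 0.08 that becomes -0.17 with miRNA reads as the total. Mir449b had 21 reads in each table.

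The miRNAs nearest to Mir184 in log2 ratio were Mir99b (-0.39), Mir7-2 (-0.42), Mir379 (-0.29) and Mir324 (-0.28), a likeness that rests on 2 tables alone. Of these, Mir99b was the only one with more reads than Mir184, at 1891 RPM in the KO and 2477 RPM in the het table. The miRNAs nearest in mean level, Mir29a (0.44), Mir30b (0.21), Mir434 (0.40) and Mir101b (0.37), all had a log2 ratio above 0, though that of Mir30b becomes -0.04 with miRNA reads as the total.

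**Figure D5:**
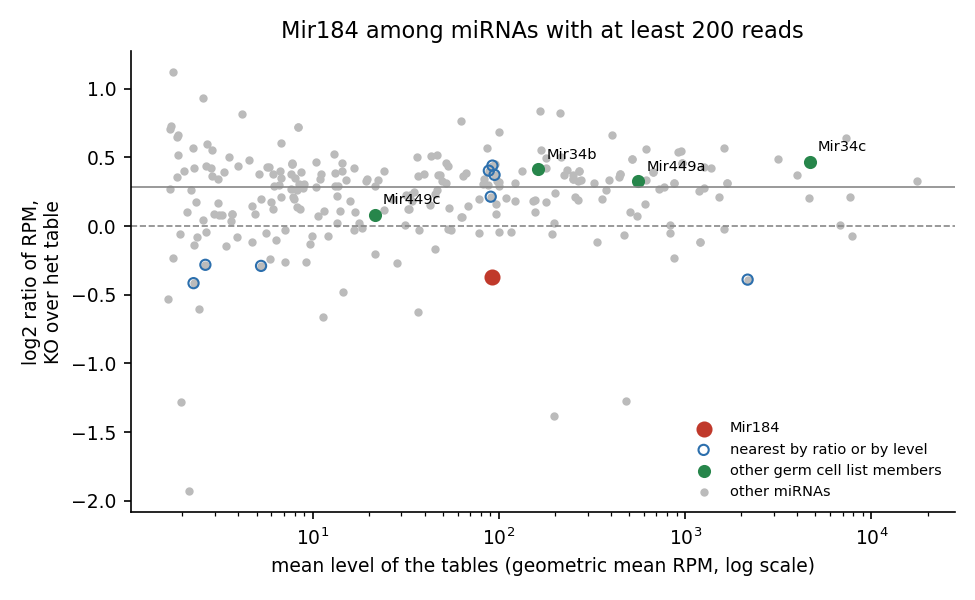
Log2 ratio of RPM (KO over het) against the geometric mean RPM of the tables (log scale) for the 260 miRNAs with at least 200 reads, with Mir184 in red, the other germ cell list members in green and the miRNAs nearest to Mir184 by ratio or by level ringed in blue; the solid line is the median, 0.29, and the dashed line 0. Mir184 lies at -0.37, while the 4 labelled germ cell miRNAs lie between 0.08 and 0.47; with miRNA reads as the total every point lies 0.25 lower, which puts Mir449c below 0.

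Since Mir184 is also known from eye, brain and surface epithelium, the listed miRNAs of other cell types were set beside it. Fewer cells of a type and less of a miRNA per cell cannot be told apart in whole testes. Of the eye and surface epithelium list, 1 of 3 reached 200 reads: Mir204 had 163 RPM in the KO and 151 RPM in the het table, while Mir205 (0.809 RPM in the KO and 0.797 RPM in the het table) and Mir211 (0.165 RPM in the KO and 0.0956 RPM in the het table) were near 0. Of the neural list 2 of 4 were measured, with a sum of 25.6 RPM in the KO and 23.4 RPM in the het table. A read in several hairpins is shared equally, so this sum leaves out other copies of both. Mir9-2 had 9.12 RPM in the KO and 6.65 RPM in the het table, as had Mir9-1. Mir128-2, not listed, had 9.26 RPM in the KO and 10.1 RPM in the het table. Mir124a-1, of the defining brain miRNA, had 0.165 RPM in the KO and 0.234 RPM in the het table, also after sharing. The Sertoli and other somatic list (5 of 5 measured, median 0.26, 4 above 0), the spermatogonia list (6 of 7, median 0.29, all 6 above 0) and the X-linked testis list (14 of 14, median 0.31, 12 above 0) lay near the median of all miRNAs. With miRNA reads as the total, the counts above 0 are 3 of 5 for the somatic, 3 of 6 for the spermatogonia and 8 of 14 for the X-linked list. The blood list (3 of 4, median 0.82, all 3 above 0 on both scales) lay higher, with a sum of 64.5 RPM in the KO and 43.7 RPM in the het table. Its member under 200 reads, Mir150, went the other way on 23 KO and 32 het reads. The log2 ratio of Mir150 was -0.26, or -0.51 with miRNA reads as the total. None of the 7 lists had a median below 0, but those of the neural list (-0.04) and of Mir204, the one measured epithelial member (-0.15), are below 0 with miRNA reads as the total. Their part in the level of Mir184 was not tested.

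The region around Mir184 gave few small RNAs. The nearest annotated gene, the long noncoding RNA gene 1700017I07Rik, starts 541 bases away on the plus strand and had 1 read of 18 to 32 nt in each table over its exons. On the other side lies the processed pseudogene Gm29608, 42794 bases away, with 0 reads in either table. The nearest coding genes are Ankrd34c and the imprinted guanine nucleotide exchange factor gene Rasgrf1. Over its exons Ankrd34c had 0 reads in the KO table and 4 sense and 5 antisense reads in the het table, all of 18 to 23 nt. Rasgrf1 had 18 KO and 36 het antisense reads of 24 to 32 nt, the length of piRNAs, and 76 KO and 105 het antisense reads of 18 to 23 nt. These reads were matched without regard to places elsewhere, so they cannot be assigned to these genes alone.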

How the data were processed

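Each of the 2 tables lists distinct read sequences with an unscaled read count, as the deposited values show (whole numbers from 1, each sequence on its own line). Per the labels' protocols, Trizol RNA (20 µg) was run on a 15% gel and libraries were made with the TruSeq Small RNA kit. For trimming and filtering, settings were not given in the sources used here. Counts were matched to the GENCODE M21 miRNA hairpins without mismatches; a read in several hairpins was shared equally among them. Arms follow RefSeq (GRCm38.p6). RPM uses all reads of a table. Log2 ratios have 0.5 reads added, plain ratios have nothing added. Intervals are Clopper-Pearson and conditional binomial. miRNAs needed 200 and forms 100 reads in the tables together. The fold used RNAfold 2.7.2. Calculations used scipy 1.17.1, pandas 2.3.3 and numpy 2.4.6 under Python 3.11.15 and were tested on simulated data. Named miRNAs were Mir184, its forms with at least 1% of reads, the 4 nearest by log2 ratio and by mean level, the germ cell list and the nearest genes; Ankrd34c, Rasgrf1, the rarer forms, the tailed forms and the miRNAs with larger differences in U tails were added after their values were seen. Mir6538, Mir6240, Mir6236, Mir879 and Mir7217 were also named after their values were seen. Mir184, the lists and the rules were chosen with earlier results of these data known. Alternatives covered scaling, length, mismatches and minimums. Mir92a-1, Mir124-1 and Mir469 are not symbols of the annotation.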

Additional observations from a re-analysis of the deposited data

How the results depend on the processing

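The log2 ratio of Mir184 (-0.37) stayed below 0 under all 12 alternatives. The alternative of reads in no other transcript held the same reads and could not differ. That of distinct sequences set 11 in the KO table against 14 in the deeper het table. Each sequence absent from the KO table had 1 read in the het table, so the sign of this alternative carries little weight. Mir184 was chosen for being lower in the KO table, so the kept sign is no independent support. Its 3p arm gave nearly the same values, which follow the gene's: -0.46 and -0.46 with 24 to 32 nt reads as the total, -0.62 and -0.62 with miRNA reads, -0.66 and -0.66 with the median miRNA at 0, -0.70 and -0.70 with miRNA reads of the same length, -0.31 and -0.31 with tails allowed, and -0.22 and -0.13 with distinct sequences. Other lengths, up to 1 mismatch, all reads of the same length and reads in no other transcript left it within its interval. For the 5p arm no alternative left its wide interval. Place 12 of Mir184 by log2 ratio became 20 of 380 with at least 50 reads, 7 of 178 with at least 1000 reads and 7 of 238 with 21 to 23 nt. Of distinct sequences, 63.6% (KO) and 50% (het) began at the annotated start, and with tails allowed 75.7% of KO and 81.3% of het reads were of 22 nt. Of the 4 forms with at least 100 reads, 2 were lower in the KO table, beside 29.3% of such forms over all miRNAs. With miRNA reads as the total it was 4 of 4, beside 53.8%. With at least 20 reads it was 4 of 7, and with at least 1000 reads 1 of 1, the 22-nt form. For those 2 minimums no share over all miRNAs was worked out, so the counts say nothing of Mir184 in particular. For U tails, Mir184 was at place 2 of 178 by the difference in points with at least 1000 reads, an alternative chosen after seeing the data. No paired analysis was possible because each table is 1 library with no test. Depth limits the 5p arm, the shifted starts and the 20-nt form, whose intervals all include 1.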

Other observations

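Higher shares of U tails were more frequent among miRNAs that were lower in the KO table. Of the 51 miRNAs with a log2 ratio below 0, the U-tailed share was higher in the KO table for 35 (68.6%), with a median difference of 0.40 percentage points. Among the other 209 it was higher for 115 (55.0%), with a median of 0.03 points. The exact reads enter both the log2 ratio and the U-tailed share, so these counts are no independent measures, and they are given without a test. Of the 4 miRNAs nearest to Mir184 in log2 ratio, only Mir379 (10% of KO and 7.13% of het reads) had a higher share in the KO table, and Mir99b had 7.40% of KO and 8.08% of het reads.

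Reads of the 22-nt form with 1 other base within its first 19 positions, counted from 1 at the 5′ end, numbered 83 in the KO table, 2.15% of the exact form, and 145 in the het table, 2.45%. In the seed there were 25 such KO reads (0.648%) and 49 such het reads (0.829%). A to G changes made up 27 KO and 35 het reads over 6 positions, among them A10G (7 KO and 9 het reads), A8G (7 KO and 7 het reads), A17G (6 KO and 3 het reads) and A15G (5 KO and 11 het reads). Whether they differed between the tables was not tested.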
